A study of Rattus norvegicus with 98 samples.

Results

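The cytosolic heat shock chaperones examined here are 10 genes, Hspa1a, Hspa8, Hspb1, Hspb8, Hsph1, Dnaja1, Dnajb1, Bag3, Ahsa1 and Hsf1, chosen by name, with every probe set that the array annotation assigns to them. These were 15 of the 31042 probe sets tested. The annotation gives 13 of them to 1 gene each. It gives 1368247_at to both Hspa1a and Hspa1b, and 1398240_at, the single probe set of Hspa8, to both Hspa8 and Haus8l2, so neither can be assigned to 1 gene. Hspb8, Hsph1, Dnaja1 and Dnajb1 had a second probe set of their own. Levels are log2 signals, on which a difference of 1 is a doubling, and no level is compared between genes.

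RNA from the nasal epithelium of 98 rats (F344/NCrl males, 8 weeks old) was hybridised to 1 expression array per animal, so that every replicate was a separate animal. The cells were freed with protease from Level II nose tissue, described in the series' design as mostly transitional with some respiratory epithelium. Exposed rats breathed formaldehyde by whole-body exposure, 6 h daily with 5 exposure days in a week. They received 15 ppm (tissue taken at 6 h only) or 0.7, 2 or 6 ppm (tissue taken at 6 h, at 24 h, and on days 5, 8 and 19). Others had 40 µl of 400 mM formaldehyde instilled into each nostril and were collected at 6 h. Controls breathed air at 0 ppm or had distilled water instilled. Each of the 24 groups held 4 animals, except 2 groups of 5 (air at 8 days and 2 ppm at 5 days).

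The source names of the samples fall into 2 array sets. Set 1 holds 82 arrays, with the 0.7, 2 and 6 ppm animals and their air controls at every time. Set 2 holds 16 arrays, all collected at 6 h, with the 15 ppm and 400 mM animals, their own air controls and the water controls. The 15 ppm animals were therefore set against the air animals of both sets. Array medians lay between 5.94 and 6.07 on the log2 scale, and the RNA integrity numbers given for 85 animals lay between 7.2 and 8.8. Defining markers of basal cells (mean log2 signal over all arrays 12.02 for Krt5, 12.52 for Krt14, 9.56 for Tp63) and ciliated cells (9.61 for Foxj1) were present. Within the 9 measured basal and squamous genes the means ran down to 3.56 (Ivl), and within the 7 secretory genes they ran between 4.62 (Reg3g) and 14.57 (Bpifa1), with Scgb1a1 at 5.44. The labels state that olfactory epithelium was discarded at dissection, yet Omp, which marks olfactory neurons, had a mean of 11.96, and the stroma and vessel genes ran from 6.49 (Pecam1) to 13.21 (Col1a2). In such mixed tissue, fewer cells of a type and less RNA per cell cannot be told apart.

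Heat shock chaperones keep other proteins folded. Hsp70 proteins bind exposed stretches of a client and release them in a cycle that J-domain proteins start and nucleotide exchange factors reset, small heat shock proteins hold unfolding clients, and Hsp90 with its cochaperones finishes many signalling proteins. When unfolded protein accumulates, as after heat or after agents that react with protein, heat shock factor 1 is freed from chaperones, binds heat shock elements (inverted repeats of the unit GAA) in the promoters of these genes and raises their transcription.

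RefSeq promoters (build GRCr8, 250 bases before to 50 after the start of the gene) were at hand for 9 of the 10 genes, all but Hsf1. They were searched on both strands for 2 adjoining inverted units, GAANNTTC or TTCNNGAA, each of which is its own reverse complement, and for 3 such units in a row, which hold 2 overlapping 2-unit matches. The 2-unit pattern was present in 7 of the 9 promoters (77.8%), in 16 of 58 promoters of other chaperone genes (27.6%) and in 15.9% of all 33465 promoters. The 3-unit pattern was present in 3 of the 9, Hspa8, Hsph1 and Dnaja1, in 5 of 58 promoters of other chaperone genes (8.62%) and in 0.798% of all promoters. Hspa1a and Ahsa1 had no match in this window. Only 1 annotated start site per gene was used, and sequence outside the window was not searched. The absence of a match is therefore not read as the absence of heat shock elements in these genes. The promoters of 6 genes are printed here, 5′ to 3′ along the gene, with the matches in capitals and all other bases in lower case. Whether the matches go with the responses described below was not tested.
Hspa1a, chr20:3859506-3859805, plus strand: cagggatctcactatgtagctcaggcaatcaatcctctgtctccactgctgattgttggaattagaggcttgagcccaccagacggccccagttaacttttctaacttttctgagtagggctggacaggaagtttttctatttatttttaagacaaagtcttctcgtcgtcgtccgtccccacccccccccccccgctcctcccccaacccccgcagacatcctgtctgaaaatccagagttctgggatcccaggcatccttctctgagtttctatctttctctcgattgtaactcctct
Hspa8, chr8:50080264-50080563, plus strand: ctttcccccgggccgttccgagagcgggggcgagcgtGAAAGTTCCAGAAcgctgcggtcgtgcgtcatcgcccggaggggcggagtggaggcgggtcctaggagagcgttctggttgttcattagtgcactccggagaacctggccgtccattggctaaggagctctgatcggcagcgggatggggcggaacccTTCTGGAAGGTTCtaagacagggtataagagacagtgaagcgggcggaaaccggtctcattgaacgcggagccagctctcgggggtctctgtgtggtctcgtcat
Hsph1, chr12:10427118-10427417, plus strand: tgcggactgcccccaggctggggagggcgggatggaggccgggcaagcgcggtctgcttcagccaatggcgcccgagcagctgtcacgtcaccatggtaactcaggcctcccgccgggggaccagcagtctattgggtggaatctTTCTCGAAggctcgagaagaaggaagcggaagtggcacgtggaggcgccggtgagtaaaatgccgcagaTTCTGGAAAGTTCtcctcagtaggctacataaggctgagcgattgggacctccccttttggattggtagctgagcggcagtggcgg
Dnaja1, chr5:60638154-60638453, plus strand: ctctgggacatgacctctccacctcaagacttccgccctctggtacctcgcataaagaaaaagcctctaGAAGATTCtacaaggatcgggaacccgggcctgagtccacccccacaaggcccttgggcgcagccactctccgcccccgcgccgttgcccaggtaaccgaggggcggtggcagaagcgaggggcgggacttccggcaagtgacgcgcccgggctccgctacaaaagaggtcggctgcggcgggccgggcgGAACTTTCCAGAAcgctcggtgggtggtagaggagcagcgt
Dnajb1, chr19:41431092-41431391, minus strand: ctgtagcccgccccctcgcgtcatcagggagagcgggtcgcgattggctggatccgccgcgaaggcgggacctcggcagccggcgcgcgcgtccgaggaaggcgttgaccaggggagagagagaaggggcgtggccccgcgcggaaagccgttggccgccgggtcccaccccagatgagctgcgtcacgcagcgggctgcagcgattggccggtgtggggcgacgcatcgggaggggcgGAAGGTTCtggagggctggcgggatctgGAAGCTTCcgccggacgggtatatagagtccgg
Hspb1, chr12:26432252-26432551, minus strand: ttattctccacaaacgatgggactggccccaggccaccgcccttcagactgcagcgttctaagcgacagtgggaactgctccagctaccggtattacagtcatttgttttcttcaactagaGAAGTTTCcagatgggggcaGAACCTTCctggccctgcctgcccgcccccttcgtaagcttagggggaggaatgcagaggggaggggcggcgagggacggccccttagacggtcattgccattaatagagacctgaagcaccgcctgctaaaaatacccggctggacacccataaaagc

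In the Dnaja1 promoter the 3-unit match lies 10 to 22 bases after the start site, in the Hsph1 promoter it spans positions −36 to −24 counted from that site, and in the Hspa8 promoter there are 2 such matches, at −55 to −43 and −213 to −201. The matches describe these letters only. No binding was measured.

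At 15 ppm, 9 of the 15 probe sets, from 6 genes, were higher than in the air animals of set 2 by limma's moderated test at an adjusted p under 0.05 (a call, below), and none was lower, against 4.32% called higher and 4.17% called lower among all probe sets. The genes were Hspb1, Dnajb1, Hspa1a, Dnaja1, Hsph1 and Ahsa1. The median change of the 15 was 0.56 log2, against 0.0066 over all probe sets, and in 12 of the 15 all 4 exposed animals lay above all 4 controls, against 8.02% of all probe sets. Set against the air animals of set 1, 7 of the 15 (5 genes) were called higher and none lower, against 8.85% higher and 6.5% lower among all probe sets, but the genes were partly others. In 7 of the 15 all exposed animals lay above these controls (13.6% of all probe sets), and in 1, of Hspa1a, all lay below (10.1%). Dnaja1, Hsph1 and Ahsa1 were higher against either air group. Hspa1a, Dnajb1 and Hspb1 were called against set 2 and not against set 1, while Hspb8 and 1398240_at were called against set 1 and not against set 2. For Hspb8 the 2 changes were nearly equal, 0.34 against set 1 and 0.35 against set 2, so only the call differed.

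After instillation of 400 mM formaldehyde, 11 of the 15 probe sets, from 7 genes, were called higher than after water and none lower, against 9.83% higher and 12.4% lower among all probe sets. Bag3 joined the 6 genes named for 15 ppm. The median change of the 15 was 0.84 log2, against 0.0214 over all probe sets. In 11 of the 15 no instilled animal overlapped with the water animals, all of them higher, against 8.94% of all probe sets. The 15 ppm and instillation comparisons have no control animals in common, while the 2 comparisons of the 15 ppm animals use the same exposed animals.

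**Figure D1:**
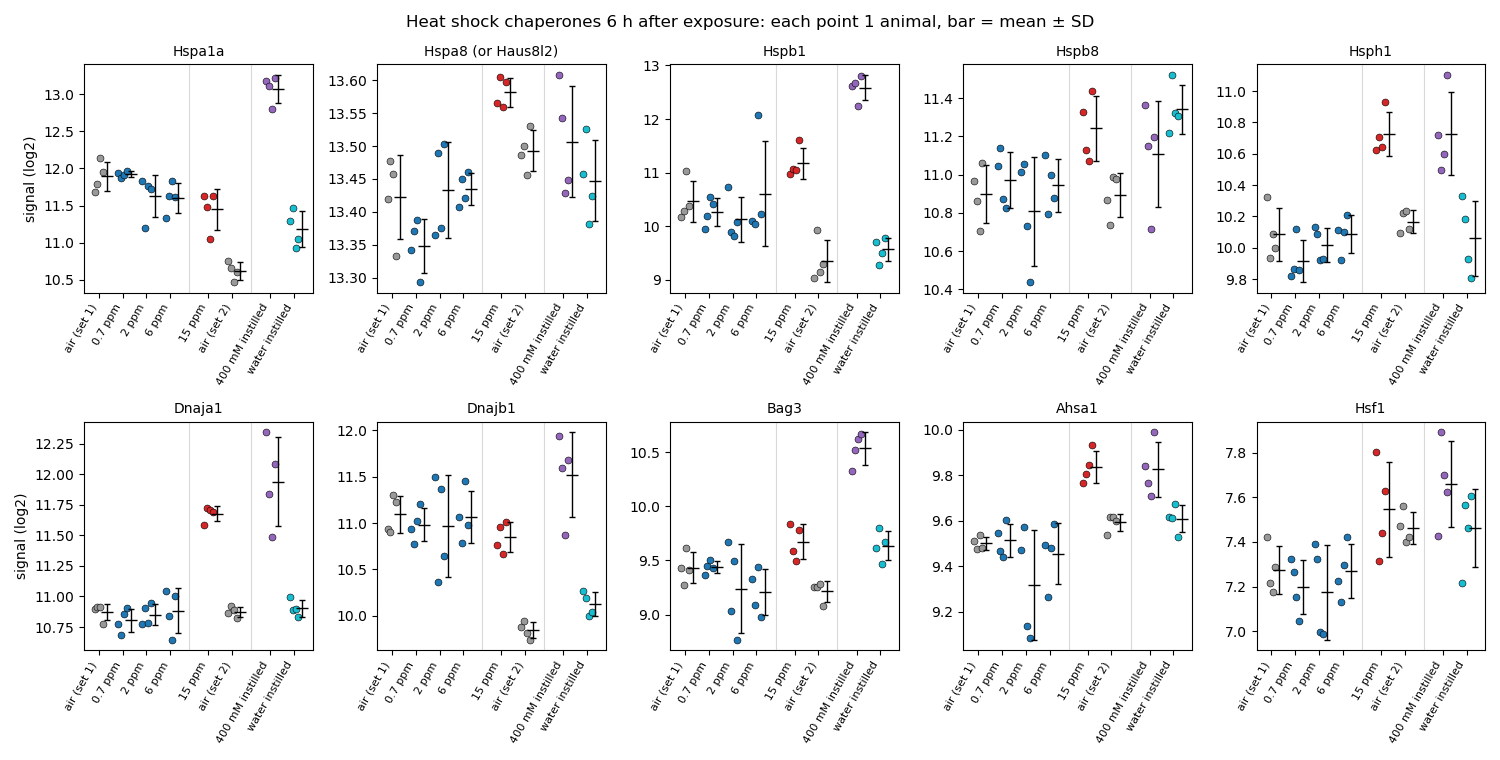
Log2 signal (y axis, scaled per gene) of the 10 genes in tissue taken at 6 h, on the main probe set of each (for Hspa1a, 1370912_at). Each point is 1 animal and each bar the mean ± SD. The dose series of set 1 runs from air to 6 ppm on the left, then 15 ppm beside the air animals of set 2, then 400 mM beside water. For Dnaja1 the 15 ppm animals lie between 11.59 and 11.73, above every animal of both air groups. For Dnajb1 they lie above the air animals of set 2 and overlap with those of set 1.

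Among the Hsp70 genes, Hspa1a, the stress-inducible Hsp70, had levels of 11.63, 11.49, 11.05 and 11.63 on 1370912_at at 15 ppm, against 10.76, 10.66, 10.47 and 10.60 in the air animals of set 2. All 4 exposed animals were above all 4 controls, a change of 0.83 ± 0.19 (SE; 1.78-fold; adjusted p = 0.00134). The air animals of set 1 had 11.68, 11.79, 12.14 and 11.95. Every 15 ppm animal was below them, and the change of −0.44 ± 0.19 was not called (adjusted p = 0.0983), while 1368247_at, assigned to Hspa1a and Hspa1b, gave 0.78 against set 2 (adjusted p = 0.000329) and −0.37 against set 1 (adjusted p = 0.109). With array weights the change on 1370912_at against set 1 was −0.42 and was called lower (adjusted p = 0.0229). After instillation Hspa1a had 13.17, 13.11, 12.80 and 13.21, against 11.29, 11.47, 10.93 and 11.05 after water. This rise of 1.89 ± 0.19 (3.70-fold; adjusted p = 3.64e-13) put all 4 instilled animals above all 82 animals of set 1, and the other probe set rose by 1.34 (adjusted p = 2.75e-10).

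1398240_at, the probe set of Hspa8 (the constitutive Hsp70 of most cells) or Haus8l2, varied least among animals of a group, with an SD of 0.07. It had 13.57, 13.60, 13.56 and 13.60 at 15 ppm, against 13.49, 13.50, 13.46 and 13.53 in the air animals of set 2 and 13.42, 13.48, 13.46 and 13.33 in those of set 1. The exposed animals were highest, by 0.09 over set 2 (adjusted p = 0.345) and by 0.16 over set 1 (adjusted p = 0.0242). The call against set 1 was lost without animal 338 or 342 of the 15 ppm group or animal 49 or 53 of the air group, with cyclic loess (adjusted p = 0.0820) and with only the compared groups in the fit (0.104). After instillation the difference from water was 0.06 with a 95% interval of −0.04 to 0.16 (adjusted p = 0.452).

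Of the exchange factors, Hsph1, an Hsp110 that resets Hsp70, had 10.63, 10.71, 10.64 and 10.93 on 1388898_at at 15 ppm, against 10.09, 10.22, 10.24 and 10.12 in the air animals of set 2 and 10.32, 9.93, 10.09 and 10.00 in those of set 1. No exposed animal overlapped with either air group. The rise was 0.56 ± 0.14 over set 2 (1.47-fold; adjusted p = 0.00537) and 0.64 ± 0.14 over set 1 (1.56-fold; adjusted p = 0.000686), and all 4 exposed animals lay above all 82 animals of set 1. Its other probe set, 1385620_at, gave 0.39 over set 2 (adjusted p = 0.278) and rose by 0.79 over set 1 (adjusted p = 0.00364). After instillation Hsph1 had 10.72, 10.50, 10.60 and 11.10, against 10.33, 10.18, 9.93 and 9.81 after water, a rise of 0.67 ± 0.14 (adjusted p = 0.000196), and the other probe set rose by 0.71 (adjusted p = 0.00607).

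Bag3, which joins Hsp70 to small heat shock proteins and autophagy, had 9.84, 9.59, 9.49 and 9.78 at 15 ppm, against 9.25, 9.25, 9.28 and 9.08 in the air animals of set 2. The exposed animals were all above these controls, yet the change of 0.46 ± 0.16 missed the threshold (adjusted p = 0.0570). It passed with array weights (adjusted p = 0.0096), cyclic loess (0.0207), without dim probe sets (0.0422) or with only the compared groups in the fit (0.0168). Against the air animals of set 1 the change was 0.24 (adjusted p = 0.327). After instillation Bag3 had 10.33, 10.52, 10.62 and 10.67, against 9.61, 9.80, 9.47 and 9.67 after water. This was a rise of 0.90 ± 0.16 (1.86-fold; adjusted p = 8.48e-06), and all 4 instilled animals were above all 82 animals of set 1.

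Both J-domain genes, which deliver clients to Hsp70, were higher at 15 ppm than in set 2 air, but they parted against set 1. Dnaja1 had 11.59, 11.73, 11.71 and 11.69 on 1398819_at at 15 ppm, against 10.86, 10.92, 10.89 and 10.83 in the air animals of set 2 and 10.90, 10.92, 10.91 and 10.78 in those of set 1. The 2 air groups overlapped, and the exposed animals stood clear of both, and above all 82 animals of set 1. Its rise was 0.80 ± 0.09 against either (1.74-fold, adjusted p = 4.41e-11 over set 2, and 1.75-fold, 4.99e-11, over set 1), the smallest p of the 10 genes in both comparisons, and 1368852_at rose by 0.65 (adjusted p = 7.0e-05) and 0.73 (4.4e-06). After instillation Dnaja1 had 12.35, 11.84, 11.49 and 12.09, against 11.00, 10.89, 10.90 and 10.83 after water, a rise of 1.04 ± 0.09 (2.05-fold; adjusted p = 4.32e-16).

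Dnajb1 had 10.77, 10.96, 10.67 and 11.01 on 1388722_at at 15 ppm, against 9.88, 9.95, 9.82 and 9.74 in the air animals of set 2. All exposed animals were higher, by 1.00 ± 0.22 on average (2.01-fold; adjusted p = 0.000657), and 1383302_at rose by 1.08 (adjusted p = 0.000999). The air animals of set 1 had 10.94, 10.91, 11.31 and 11.22, overlapping with the exposed animals, and the changes of −0.24 and −0.19 on the 2 probe sets were not called (adjusted p = 0.493 and 0.645). After instillation Dnajb1 had 11.94, 11.59, 10.87 and 11.68, against 10.27, 10.20, 10.00 and 10.04 after water. The groups did not overlap, and the probe sets rose by 1.39 ± 0.22 (2.63-fold; adjusted p = 4.03e-07) and 1.37 ± 0.24 (adjusted p = 5.7e-06).

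Of the small heat shock proteins, Hspb1, known as Hsp27 in humans, moved most. It had 10.98, 11.06, 11.04 and 11.61 at 15 ppm, against 9.02, 9.92, 9.15 and 9.30 in the air animals of set 2. This was a rise of 1.82 ± 0.28 (3.54-fold; adjusted p = 1.48e-06) with no overlap. The air animals of set 1 had 10.17, 10.28, 11.03 and 10.37, with animal 52 at 11.03 inside the range of the exposed animals, and the change of 0.71 ± 0.28 was not called (adjusted p = 0.0739). Without that animal it was 0.90 (adjusted p = 0.0343), and with array weights 0.72 (adjusted p = 0.0133). After instillation Hspb1 had 12.62, 12.67, 12.25 and 12.81, against 9.70, 9.28, 9.49 and 9.78 after water. The rise of 3.02 ± 0.28 (8.12-fold; adjusted p = 2.38e-14) took every instilled animal above all 82 animals of set 1.

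Hspb8, a small heat shock protein that works with Bag3, was called higher at 15 ppm against set 1, but not against set 2 or after instillation. On 1388721_at it had 11.33, 11.13, 11.07 and 11.44 at 15 ppm, against 10.87, 10.74, 10.99 and 10.98 in the air animals of set 2 (change 0.35, adjusted p = 0.0642) and 10.97, 10.86, 10.71 and 11.06 in those of set 1 (0.34, adjusted p = 0.0481). The exposed animals were above both air groups, but the call against set 1 was lost without any of 5 animals (337 and 342 of the 15 ppm group, 49, 50 and 52 of the air group) or with only these groups in the fit (adjusted p = 0.0530), and the other probe set gave 0.21 (adjusted p = 0.501). Against set 2 the change passed with array weights (adjusted p = 0.0136), cyclic loess (0.0215) or without dim probe sets (0.0478). After instillation it had 11.37, 11.15, 10.71 and 11.20, against 11.22, 11.52, 11.32 and 11.31 after water. These groups overlapped, and the changes of −0.24 and −0.40 on the 2 probe sets were not called (adjusted p = 0.175 and 0.123), the second passing without water animal 355 (adjusted p = 0.0468).

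Ahsa1, which activates the Hsp90 ATPase, had 9.76, 9.80, 9.84 and 9.93 at 15 ppm, against 9.54, 9.62, 9.62 and 9.60 in the air animals of set 2 and 9.51, 9.48, 9.54 and 9.48 in those of set 1. The exposed animals were above every control and above all 82 animals of set 1. The rises were small, 0.24 ± 0.07 over set 2 (1.18-fold; adjusted p = 0.0180) and 0.33 ± 0.07 over set 1 (1.26-fold; adjusted p = 0.000353), and the call against set 2 was lost without animal 342 (15 ppm) or 321 (air). After instillation Ahsa1 had 9.84, 9.77, 9.71 and 9.99, against 9.62, 9.61, 9.67 and 9.53 after water, a rise of 0.22 (adjusted p = 0.0180) that was lost without animal 374 (instilled) or 356 (water). With the RNA integrity number as a covariate it was not called against set 2 air (0.18, adjusted p = 0.119) or water (0.18, adjusted p = 0.0524), nor with only the compared groups in the fit (adjusted p = 0.0567 and 0.149).

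Hsf1, the transcription factor itself, had 7.80, 7.32, 7.44 and 7.63 at 15 ppm, against 7.47, 7.56, 7.40 and 7.42 in the air animals of set 2, which overlap. Its change was 0.08 against set 2 (adjusted p = 0.742), 0.27 against set 1 (0.0675) and 0.20 after instillation (0.176). The change against set 1 passed without animal 338 of the 15 ppm group (adjusted p = 0.0256), with cyclic loess (0.0266) or with the RNA integrity covariate (0.0445), and that after instillation with cyclic loess (0.0194). Its transcript level says nothing of the activity of the protein, which is set after translation.

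**Figure D2:**
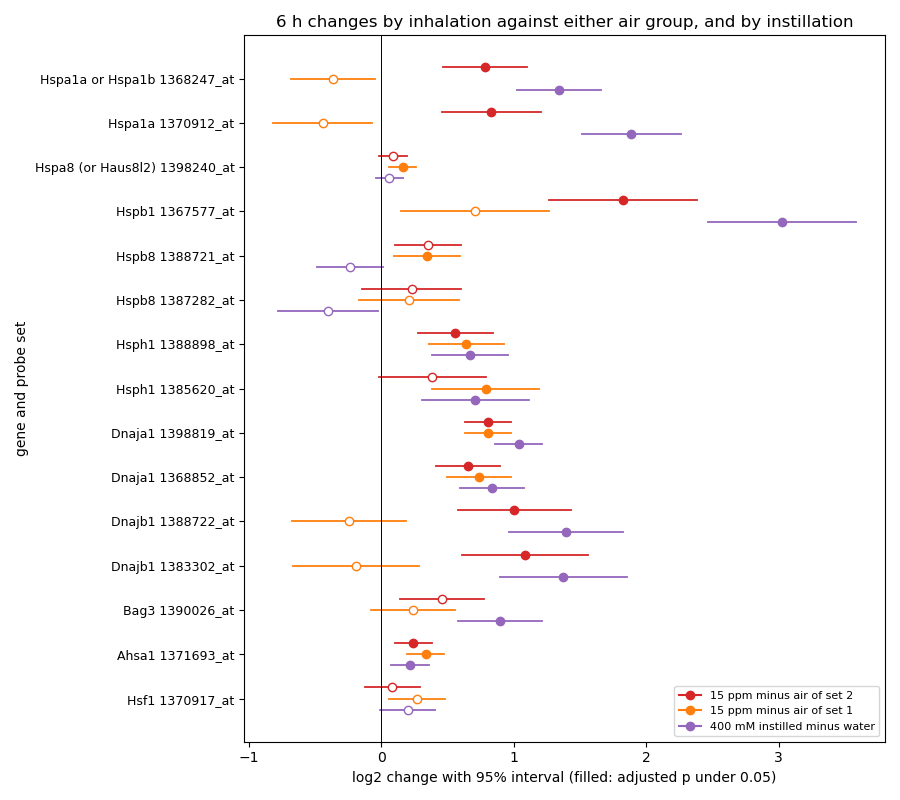
Log2 change (x axis) of each of the 15 probe sets (y axis) with its 95% interval, for 15 ppm minus the air animals of set 2, 15 ppm minus those of set 1, and 400 mM minus water. Filled points have an adjusted p under 0.05. Dnaja1 lies at 0.80 against both air groups, whereas Hspa1a (1370912_at) lies at 0.83 and −0.44.

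The 2 air groups at 6 h differed in 5 of the 15 probe sets, all lower in set 2 and none higher, against 2.21% called lower and 2.49% called higher among all probe sets. They were the 2 of Hspa1a (−1.27 ± 0.19 on 1370912_at, adjusted p = 3.13e-06, and −1.15 on 1368247_at, 7.41e-07), the 2 of Dnajb1 (−1.25 ± 0.22, adjusted p = 7.08e-05, and −1.28, 0.000252) and Hspb1 (−1.11 ± 0.28, adjusted p = 0.00907). The groups did not overlap in these 5, against 7.44% of all probe sets lower in set 2, nor in Ahsa1, where set 2 was higher (10.2% of all probe sets). The Hspb1 call was lost without air animal 52 of set 1 (adjusted p = 0.0712). All 4 air animals of set 2, and all 4 water animals, lay below all 21 air animals of set 1 in Hspa1a and Dnajb1 on both probe sets. Dnaja1 (0.00, with a 95% interval of −0.17 to 0.18), Hsph1 (0.08, −0.20 to 0.37) and Hspb8 (−0.01, −0.26 to 0.24) were not called.

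Other measures moved with this difference. The RNA integrity number was 7.3 to 7.8 in the air animals of set 2 and 7.8 to 8.3 in those of set 1. With it as a covariate 5 probe sets were called, but the share of all probe sets called in that fit was not computed. The 2 ranges meet only at 7.8, so this fit cannot tell RNA integrity apart from array set. The stroma and vessel list averaged 9.72 to 10.07 log2 in set 2 air animals and 10.36 to 10.76 in those of set 1, with 2 of its 7 genes called lower (2.21% of all probe sets). Skeletal muscle genes averaged 4.19 to 5.46 in set 2 air animals and 5.46 to 6.61 in those of set 1, with 0 of 5 called. Since the air groups differ in array set, what distinguishes the sets cannot be told apart from what distinguishes these animals. Between water and the air animals of set 2, 0 of 15 probe sets were called, against 0.0129% of all, though 5 had an unadjusted p under 0.05 (10.4% of all probe sets did), all higher after water: Hspb8 (0.45 and 0.75), Hspa1a (0.56 and 0.52) and Bag3 (0.42). With array weights 4 were called, but the share of all probe sets called in that fit was not computed.

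Neutrophil genes were higher in both exposed groups. Their 5 measured genes averaged 7.68 to 8.15 log2 at 15 ppm, against 6.07 to 6.62 in the air animals of set 2 and 6.16 to 7.34 in those of set 1. Of them 4 and 2 were called higher, against 4.32% and 8.85% of all probe sets. After instillation they averaged 8.85 to 9.65, against 6.55 to 7.31 after water, with 4 called higher. The lymphocyte list averaged 5.74 to 6.14 after instillation, against 5.24 to 5.47 after water, with 1 of 6 called higher, and the macrophage and dendritic list 7.67 to 8.27, against 7.40 to 7.72, with 2 of 6 called higher. Of the secretory genes 1 of 7 was called higher, and of the stroma and vessel genes 1 of 7 lower. Among all probe sets 9.83% were called higher and 12.4% lower after instillation. A count of 1 in a list this short is not read as a change of that list. Erythroid genes averaged 9.59 to 11.02 at 15 ppm, against 9.04 to 9.84 in set 2 air, with 1 of 4 called higher (4.32% of all probe sets). Against set 1 air, 2 of 7 stroma and vessel genes and 1 of 5 muscle genes were called lower at 15 ppm (6.5% of all probe sets). The olfactory list averaged 7.25 to 8.42 after instillation, against 7.49 to 9.35 after water, with 0 of 6 called, and the ciliated list 9.73 to 9.83, against 10.07 to 10.40, with 1 of 5 called lower. The RNA integrity number was 7.7 to 8.2 at 15 ppm, against 7.3 to 7.8 in set 2 air and 7.8 to 8.3 in set 1 air, and 8.3 to 8.4 after instillation, against 7.5 to 8.3 after water. With it as a covariate 8 of the 15 probe sets were called at 15 ppm over set 2 air, 8 over set 1 air and 10 after instillation. The share of all probe sets called with the covariate was not computed. The part of these cells in the chaperone changes was not tested.

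The effects of the routes were compared directly, as the change at 15 ppm over set 2 air minus the change at 400 mM over water. In 1 of the 15 probe sets this difference was called, against 0.879% of all: Hspa1a on 1370912_at, −1.06 ± 0.27 (adjusted p = 0.0266), smaller by inhalation. The call was lost without any of 6 animals (374 instilled, 341 at 15 ppm, 355 and 356 of water, 321 and 322 of air), and on 1368247_at the difference was −0.56 (adjusted p = 0.328). For Hspb1 it was −1.20 with a 95% interval of −1.99 to −0.41 (adjusted p = 0.152), and for Hspb8 0.59, from 0.24 to 0.94 (adjusted p = 0.0907, and 0.0420 without instilled animal 365). Dnaja1 (−0.23, from −0.48 to 0.01), Hsph1 (−0.11, from −0.51 to 0.29) and Ahsa1 (0.02, from −0.17 to 0.22) were not called, which leaves room for differences of up to these bounds. An inhaled concentration and an instilled dose are not matched.

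**Figure D3:**
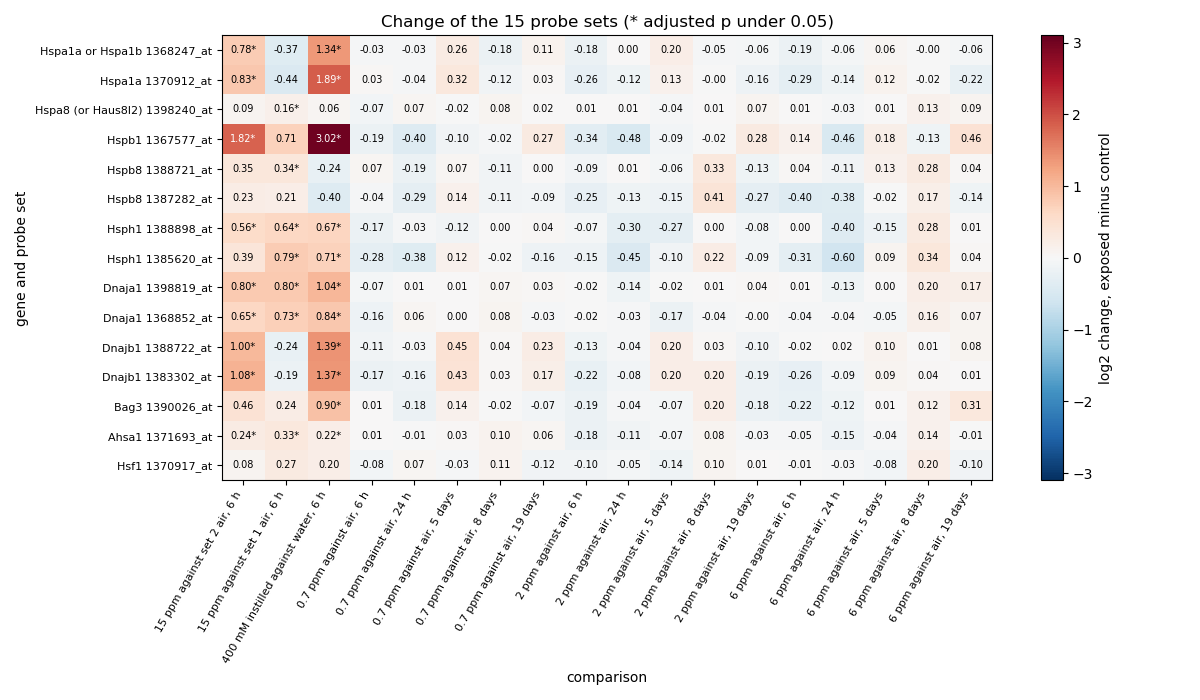
Log2 change of the 15 probe sets (rows) in the 3 comparisons at high dose and in the 15 comparisons at 0.7, 2 and 6 ppm (columns), exposed minus control. Colour runs from blue (lower) to red (higher), and an asterisk marks an adjusted p under 0.05. The asterisks lie in the first 3 columns only.

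At 0.7, 2 and 6 ppm no member was called at any time: 0 of 15 probe sets passed in each of the 15 comparisons with air of the same time. Among all probe sets the share called was 0% at 0.7 ppm except at 5 days (0.00644%). At 2 ppm it was 0.00322% at 6 h and 0.0741% at 5 days, and 0% at the other times. At 6 ppm it was 0.245% at 6 h, 0.00322% at 24 h, 0.119% at 5 days, 0.029% at 8 days and 0.412% at 19 days, so that few genes of any kind were called and a count of 0 among 15 is near that background. By unadjusted p under 0.05, up to 5 of the 15 passed in any 1 comparison. At 6 ppm these were 4 at 24 h, when 7.57% of all probe sets passed, all lower (Hsph1 −0.60 and −0.40, Hspb8 −0.38, Ahsa1 −0.15), and 5 at 8 days, when 6.14% of all passed, all higher (Hsph1 0.28, Hspb8 0.28, Dnaja1 0.20, Ahsa1 0.14 and 1398240_at 0.13).

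Averaged over the 5 times, where the precision is higher, 6 ppm animals again gave 0 of 15, while 6.37% of all probe sets were called, and 0 with an unadjusted p under 0.05, against 22.6% of all. The 15 changes lay between −0.15 and 0.08, and their 95% intervals between −0.32 and 0.28. The change was 0.05 for Dnaja1 (−0.03 to 0.13), −0.11 for Hspa1a (−0.28 to 0.05) and 0.04 for Hspb1 (−0.21 to 0.28). At 2 ppm 0 of 15 were called against 0.361% of all, with 2 below an unadjusted p of 0.05, both lower (10.7% of all), and at 0.7 ppm 0 of 15 against 0% of all, with 0 below (2.84% of all). A difference of the 6 ppm change between times was called in 0 of the 15 (0.0129% of all), with 3 below an unadjusted p of 0.05 (6.1% of all). In air animals alone the 5 times differed in 11.4% of all probe sets and in 0 of the 15, with 1 below an unadjusted p of 0.05 (26.2% of all).

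**Figure D4:**
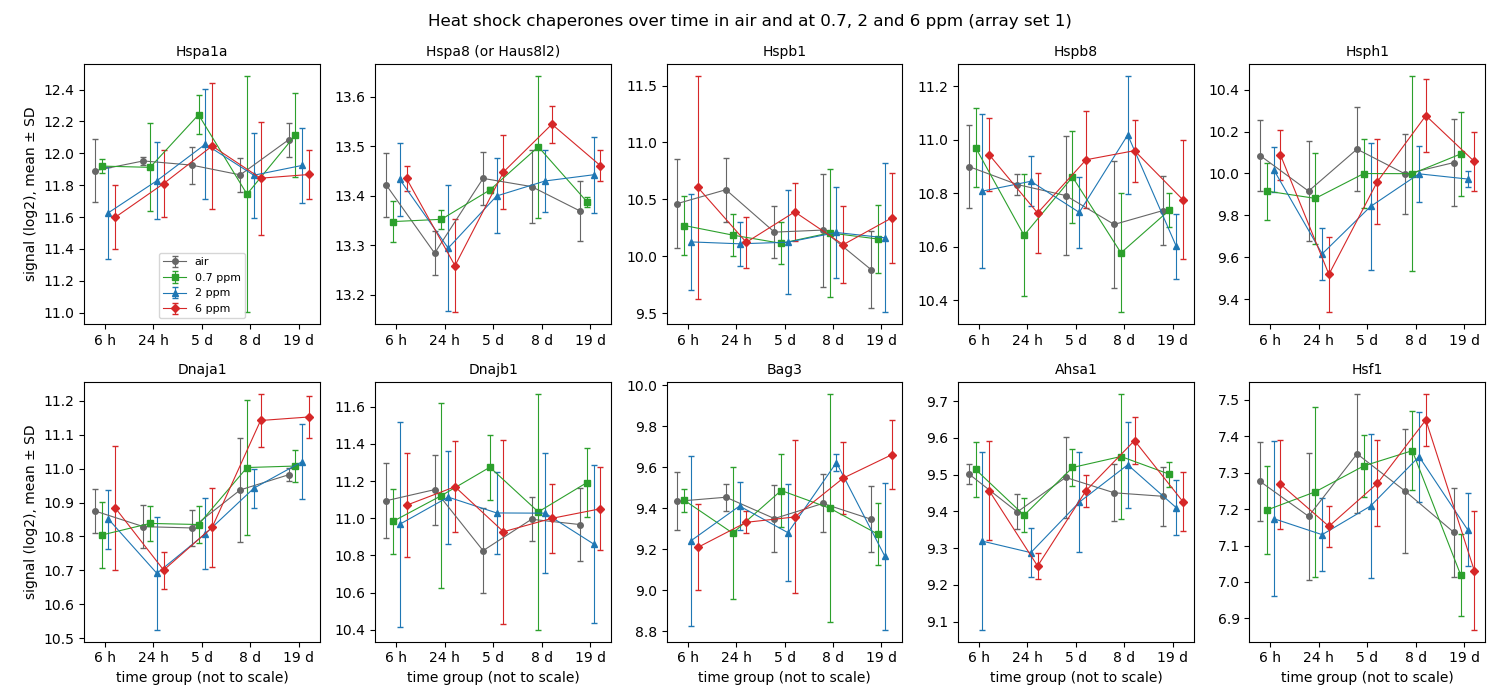
Mean log2 signal ± SD (y axis, scaled per gene) over the 5 times (x axis, not to scale) in air and at 0.7, 2 and 6 ppm, 4 or 5 animals each, on the main probe set of each of the 10 genes. The doses overlap at most times. The wide bars of 0.7 ppm at 8 days come from 4 animals that spread from 10.85 to 12.53 in Hspa1a.

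Whether the response at 15 ppm exceeded that at 6 ppm at 6 h was tested as the difference of the changes, each over the air animals of its own set. In 6 of the 15 probe sets, from 4 genes, it was called, all higher at 15 ppm, against 1.19% of all. Hspb1 differed by 1.68 ± 0.40 (adjusted p = 0.0117), Hspa1a by 1.12 ± 0.27 (0.0119) and 0.97 (0.0104), Dnaja1 by 0.79 ± 0.12 (1.28e-05) and 0.69 (0.0185), and Dnajb1 by 1.34 ± 0.34 on 1383302_at (0.0217) and 1.03 on 1388722_at (0.0762). The levels themselves parted by gene. In Hspa1a the 15 ppm animals, at 11.05 to 11.63, overlapped with the 6 ppm animals, at 11.34 to 11.83, and in Dnajb1 (1388722_at) 10.67 to 11.01 overlapped with 10.78 to 11.45. In Dnaja1 the 15 ppm animals, at 11.59 to 11.73, were all above the 6 ppm animals, at 10.64 to 11.04. Single animals mattered: Hspb1 was lost without animal 284 (6 ppm) or 342, 1368852_at of Dnaja1 without 286 (6 ppm), and 1383302_at without 284, 342, 325 (set 2 air) or 52 (set 1 air), while 1388722_at passed without 286 (adjusted p = 0.0400). Animal 286 had 12.07 in Hspb1, against 10.03 to 10.23 in the other 6 ppm animals.

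Over the 24 group means, the order of the levels took 2 forms in 6 of the 10 genes. Hspa1a, Dnajb1 and Hspb1 had their lowest mean in the air animals of set 2 and the next in the water animals, and their highest after 400 mM (10.62, 11.19 and 13.07 in Hspa1a, 9.35, 9.56 and 12.59 in Hspb1, 9.85, 10.13 and 11.52 in Dnajb1). Dnaja1, Hsph1 and Ahsa1 had their lowest means at 24 h in animals exposed to 2 or 6 ppm (10.69 in Dnaja1 at 2 ppm, 9.52 in Hsph1 and 9.25 in Ahsa1 at 6 ppm), and their 2 highest in the 15 ppm and 400 mM animals. Those 2 highest means were 10.73 and 10.73 in Hsph1 and 9.84 and 9.83 in Ahsa1, apart by less than the spread between animals (SD 0.14 and 0.27 in Hsph1). The other 4 genes followed neither form in full, and the forms shared traits. Bag3 and Hsf1, and also Hspb1, had their 2 highest means in the 15 ppm and 400 mM animals. The lowest mean of 1398240_at was at 24 h, as in Dnaja1, Hsph1 and Ahsa1. Bag3 was lowest at 2 ppm and 19 days (9.16) and highest after 400 mM (10.54), and Hsf1 lowest at 0.7 ppm and 19 days (7.02) and highest after 400 mM (7.66). Hspb8 was lowest at 0.7 ppm and 8 days (10.58) and highest after water (11.34), and 1398240_at of Hspa8 lowest at 6 ppm and 24 h (13.26) and highest at 15 ppm (13.58).

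Animals of a group also differed together. Each animal's deviation from its group mean was compared over the 45 pairs of different genes in all 98 animals, with p from 100000 permutations within groups, 2-sided, adjusted over these pairs and the 5 pairs of probe sets of 1 gene. In 19 of the 45 the correlation was past an adjusted p of 0.05, 10 positive and 9 negative. Pairs of other genes were not compared, so the share that would pass among them is not known. The count is therefore not read as particular to these genes. Hspa1a went with Dnajb1 (Pearson r = 0.78, Spearman rho = 0.76) and Bag3 (0.70 and 0.62), each with a permutation p of 1e-05, the smallest the permutations can give. Without the 2 animals farthest from the median of Hspa1a, r was 0.74 with Dnajb1 and 0.62 with Bag3. Hspa1a and Dnajb1 held within set 1 (r = 0.80, 82 animals) and set 2 (0.65, 16 animals), but Dnajb1 and Bag3, with 0.71 over all (rho = 0.62, permutation p = 1e-05, 0.66 without 2 animals), had 0.78 in set 1 and −0.12 in set 2.

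Dnaja1 went with 1398240_at of Hspa8 (r = 0.54, rho = 0.49, permutation p = 1e-05, adjusted p of r 4.55e-05; 0.58 in set 1 and 0.53 in set 2; 0.47 without 2 animals), and Hsph1 with Ahsa1 (r = 0.56, rho = 0.53, permutation p = 1e-05; 0.53 and 0.75; 0.48 without 2 animals). Bag3 went against Dnaja1 (r = −0.45, rho = −0.41, permutation p = 5e-05; −0.52 and −0.39; −0.49 without 2 animals). Hspa1a with Dnaja1 had r = −0.31 (rho = −0.31, permutation p = 0.0161, adjusted p = 0.035), but −0.51 in set 1, 0.35 in set 2 and −0.22 without 2 animals. Dnajb1 did not pass with Dnaja1 (r = −0.11, adjusted p = 0.520), Hsph1 (−0.11, 0.498) or Ahsa1 (−0.15, 0.421), nor Bag3 with Hsph1 (−0.19, 0.295) or Ahsa1 (−0.22, 0.246), nor Hspa1a with Hsph1 (adjusted p = 0.0768). Most of these pairs had opposite signs in the sets, so r over all animals hides them. Dnajb1 with Dnaja1 had −0.40 in set 1 and 0.89 in set 2. With Hsph1 it had −0.19 and 0.45, and with Ahsa1 −0.23 and 0.49. Hspa1a with Hsph1 had −0.44 and 0.49. Bag3 had −0.25 and 0.32 with Hsph1, and −0.24 and −0.03 with Ahsa1. Of the 19 pairs that passed, 13 had the same sign in both sets. The 4 animals at 0.7 ppm and 8 days spread widely: animal 143 had 10.85 in Hspa1a, 8.72 in Bag3 and 11.27 in Dnaja1, and animal 146 had 12.53, 9.93 and 10.90. Tissue composition and handling differ between animals, and their part was not tested.

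**Figure D5:**
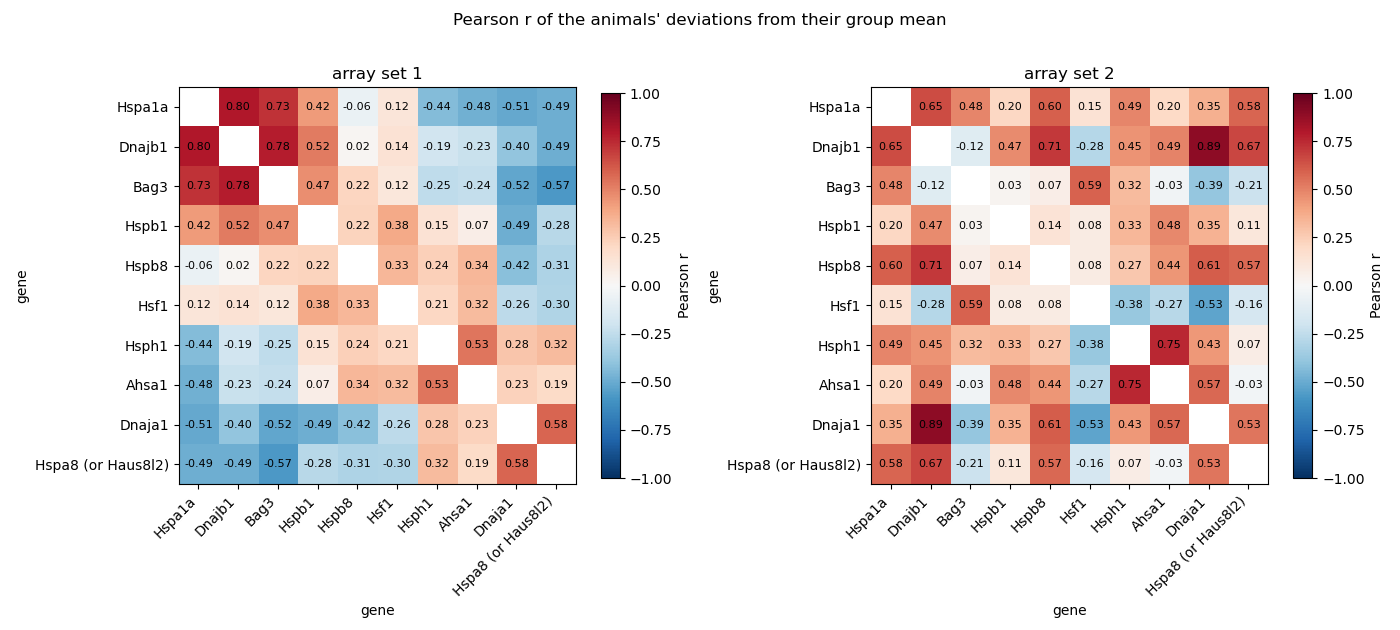
Pearson r between genes (rows and columns) of the animals' deviations from their group mean, in the 82 animals of set 1 on the left and the 16 of set 2 on the right. Red is positive and blue negative. In set 1 Hspa1a, Dnajb1, Bag3 and Hspb1 form a block (0.42 to 0.80) that is negative with Dnaja1 (−0.51 for Hspa1a), while in set 2 Hspa1a and Dnaja1 have 0.35.

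The genes whose group means most resembled each member over the 24 groups, among 14208 other genes, are a description of shared pattern only, since groups share array set and time. For Dnajb1 they were Atf3 (r = 0.95), Egr1 (0.93) and Fosb (0.87), transcription factors of the immediate early and stress response. Since they were picked for their means over these groups, their values restate that choice: Atf3 differed by 2.58 between 15 ppm and set 2 air, by 0.16 between 15 ppm and set 1 air and by −2.43 between set 2 air and set 1 air, and Egr1 by 1.14, −0.04 and −1.18. For Hspa1a they were Nfkbia (0.89), an inhibitor of NF-kappaB, Elp5 (0.87) and Tnfaip3 (0.86). For Dnaja1 they were Utp3 (0.96), Hspd1 (0.96) and Zbtb10 (0.95), and for Hspb1 Tmem199 (0.93), Hspe1 (0.93) and Nifk (0.91), of which Hspd1 and Hspe1 encode the mitochondrial chaperonin and its partner. For Bag3 they were Dusp11 (0.93), Umps (0.93) and Myc (0.92), and Hsph1 and Ahsa1 had Thoc1 (0.90 each) in common.

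Of 68 other chaperone genes listed, 65 were measured. At 15 ppm 17 were called higher than in set 2 air and 0 lower (4.32% and 4.17% of all probe sets), with a median of 0.10 log2. Against set 1 air 17 were higher and 5 lower (8.85% and 6.5% of all), and after instillation 19 were higher and 5 lower (9.83% and 12.4% of all). Among the lower genes the counts of 5 of 65 are near or under the share of all probe sets. The smallest p at 15 ppm over set 2 air fell to Hspe1 (0.54 ± 0.07, 1.45-fold, adjusted p = 1.41e-09), Dnajb4, a J-domain protein (0.67 ± 0.09, 1.59-fold, 3.49e-08), Hspd1 (0.48 ± 0.07, 6.49e-08), Cct3, a subunit of the cytosolic chaperonin (0.34, 1.45e-06), Dnaja2 (0.31, 0.000154) and Bag5 (0.39, 0.000254). All 6 were also called higher over set 1 air, by 0.30, 0.58, 0.63, 0.22, 0.37 and 0.39. Of the 13 measured genes of the chaperonin and its helper prefoldin, 8 rose over set 2 air (4.32% of all probe sets), 5 rose and 1, Pfdn1, fell (−0.28) over set 1 air (8.85% and 6.5% of all), and 8 rose after instillation (9.83% of all).

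After instillation the smallest p fell to Hspe1 (0.96 ± 0.07, 1.95-fold, adjusted p = 6.83e-21), Hspd1 (0.83 ± 0.07, 1.77-fold, 1.67e-17), Dnajb4 (0.85, 4.58e-12), Tcp1, another chaperonin subunit (0.38, 3.76e-06), Bag2 (0.54, 8.87e-06) and Hspa2, an Hsp70 best known from testis (0.97, 1.61e-05). The 5 lower genes were Stip1 (−0.27), Hspb6 (−0.45), Ppp5c (−0.36), Dnajc8 (−0.17) and Dnajc7 (−0.23). With only the instilled and water animals in the fit 8 genes were called in place of 24. The 5 genes lower at 15 ppm than in set 1 air were Hspa13 (−1.06), Stub1 (−0.28), Hspb6 (−0.49), Clpb (−0.29) and Pfdn1. Averaged over 5 times at 6 ppm, 5 of 65 were called, near the 6.37% of all probe sets. Of these 3 were higher, Cryaa (0.21, adjusted p = 0.00175), Dnajc5 (0.12, 0.00626) and Ptges3 (0.07, 0.0460), and 2 lower, Dnajc7 (−0.12, 0.0331) and Hspbp1 (−0.14, 0.0464).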

How the data were processed

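The deposited values are log2 expression levels per probe set of the Affymetrix Rat 230 2.0 array, with nearly the same distribution on every array. Their normalization is by a method not given in the sources used here, which could affect how levels compare between array sets. Of 31099 probe sets, 57 control probe sets were left out. Gene names come from the platform annotation, updated through RefSeq gene IDs. Groups, times, doses and array sets come from the labels. The labels give the 0.7 ppm animals at 8 days as 0.07 ppm in a treatment field, and 0.7 ppm, given in their descriptions, was used.

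A coefficient per group was fitted over all 98 arrays with limma 3.58.1 in R 4.3.3 (lmFit and eBayes, 74 residual degrees of freedom). Each of 27 comparisons was adjusted over the 31042 probe sets by Benjamini-Hochberg, with calls at 0.05. Errors are SE of the change, and intervals cover 95%. The fit was tested on simulated data. The precision is limited by the number of arrays, and scanner signals over background were not used here. Where a gene has several probe sets, the main one has the highest mean over all arrays among those of 1 gene. Other chaperone genes were named as the 6 called genes with the smallest p at 15 ppm over set 2 air and after instillation, and any behind a count of 5 or fewer. Likeness names the 3 genes with the highest Pearson r. The alternatives tried are given in the closing section. The members and gene lists were chosen with earlier results of these data known.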

Additional observations from a re-analysis of the deposited data

Results flagged for a closer look

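Among 240 combinations of the 10 genes and 24 groups, 14 held an animal far from the rest of its group, where chance gives about 1 in 20. The count of 14 is near that share, so these animals are listed only. In exposed animals these were high values of Hspb1 at 15 ppm (11.61 in animal 342) and at 6 ppm and 6 h (12.07 in animal 286), of Hspa1a at 6 ppm and 24 h (12.12 in animal 289), of Dnajb1 at 2 ppm and 19 days (11.50 in animal 233), of Hsph1 at 0.7 ppm and 6 h (10.12 in animal 130) and of Hspb8 at 6 ppm and 8 days (11.13 in animal 300), and low values of Hspb8 at 2 ppm and 8 days (10.69 in animal 223) and Ahsa1 at 0.7 ppm and 5 days (9.44 in animal 139). In air animals they were low values of 1398240_at of Hspa8 at 19 days (13.28 in animal 73), Hspb8 at 5 days (10.46 in animal 62), Dnaja1 at 6 h in set 1 (10.78 in animal 53), and Bag3 at 24 h (9.36 in animal 58) and at 6 h in set 2 (9.08 in animal 325), and a high value of Hsph1 at 19 days (10.36 in animal 76).

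Changes differed between groups in 7 cases by the test of the difference itself. The change in Hspa1a (1370912_at) was smaller at 15 ppm than after instillation, by −1.06 on the log2 scale. The change at 15 ppm exceeded that at 6 ppm by 0.97 (1368247_at) and 1.12 (1370912_at) for Hspa1a, by 1.68 for Hspb1, by 0.79 (1398819_at) and 0.69 (1368852_at) for Dnaja1 and by 1.34 (1383302_at) for Dnajb1. Each change was taken over the air animals of its own set. In Hspa1a (1370912_at) the mean level was 11.45 at 15 ppm and 11.60 at 6 ppm, with air at 10.62 in set 2 and 11.89 in set 1.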

How the results depend on the processing

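No paired analysis was possible because every rat contributed a single array. Counts of members called were within 1.5 times of those reported under a trended and robust prior, array weights, cyclic loess, a filter on probe sets with a mean under 5, RNA integrity as a covariate and a fit of only the compared groups, with 3 exceptions. With array weights 4 probe sets were called between water and set 2 air and 1 between the 5 times in air. The share of all probe sets called in that weighted fit was not computed. With only the instilled and water animals in the fit 8 other chaperone genes were called. Leaving out 1 animal moved the count for 15 ppm minus instillation to between 0 and 2, and the change of Hsf1 at 15 ppm over set 2 air to between −0.0026 and 0.16; the cause was not tested. Under those settings and the second probe set of a gene, 173 changes of single members kept their side of the threshold, 13 gained a call, 9 lost it and 0 reversed. Cyclic loess moved the median of all probe sets by at most 0.04 log2. In the 3 high-dose comparisons the fit of all 24 groups assumes an equal spread in every group, and 4 animals a group limit what could be called.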
